A study of Mus musculus with 6 samples.

Results

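The cytokines that define Th17 cells, their companion chemokines and the receptors that sustain them were followed as 10 transcripts: Il17a, Il17f, Il21, Il22, Il10, Csf2, Ccl20, Cxcl3, Il23r and Il1r1. The members were fixed by gene name in GENCODE vM21, and all 10 were found among the 55450 genes of each deposited table. All 10 also passed the filter on low values that left 14958 genes to test. The libraries formed 3 groups of 2, with 1 library per group from each of 2 wild-type mice. The groups were Th17 cells that had received ADAR2 WT in a retroviral vector (MSCV, murine stem cell virus), those that had received the enzymatically dead ADAR2 E396A, and those with the empty MSCV vector. ADAR2, encoded by Adarb1, converts adenosine to inosine in double-stranded RNA. In every group, naive CD4+ T cells of mice 8 to 12 weeks old were activated with 0.25 µg/mL anti-CD3ε and 1 µg/mL anti-CD28, with 0.1 ng/mL TGF-β and 20 ng/mL IL-6. Retrovirus was added at 24 h, and TGF-β at 0.3 ng/mL with IL-6 at 20 ng/mL was kept for a further 48 h until collection at 72 h. IL-23 and IL-1β are not among the agents named in the labels. The labels name no step that selects transduced cells, so each library may hold untransduced cells too.

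Th17 cells are the helper T cells that secrete IL-17A and IL-17F, a pair of related cytokines that act on epithelial and stromal cells to recruit neutrophils. TGF-β and IL-6 start the programme through SMAD and STAT3 signalling. IL-21 feeds back on the cells that make it, and IL-23 and IL-1, acting through Il23r and Il1r1, stabilise the programme and promote GM-CSF, the product of Csf2. IL-10 is the cytokine of the less inflammatory Th17 state. CCL20 attracts cells bearing CCR6, which Th17 cells carry themselves, and CXCL3 attracts neutrophils.

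The columns of the deposited tables carry no group or donor names. Libraries shared by the tables were assigned to empty vector, and each remaining library to the construct in its table's name. The study's design names 2 mice and sets each construct against empty vector of the same mouse, without saying which libraries share one. The 2 sets of 3 libraries that return the authors' deposited statistics when fitted as pairs were taken as its 2 mice, and they are called donor A and donor B here. Neither set can be tied to a replicate number of the labels. Depth was 16496328 to 21897166 assigned reads per library, both extremes in donor B (ADAR2 WT and ADAR2 E396A). Adarb1 was at 18999 and 18422 normalized counts with ADAR2 WT in donors B and A, at 14920 and 15644 with ADAR2 E396A, and at 3333 and 3672 with empty vector. It rose with ADAR2 WT by 2.42 (standard error 0.07, BH-adjusted limma p of 2.21e-06) and with ADAR2 E396A by 2.13 (standard error 0.07, BH-adjusted limma p of 6.48e-06) on the log2 scale. Transgene and endogenous reads cannot be separated. Summed over 9 CD4 T cell markers, libraries held 48115 to 59576 normalized counts. The sums were 580 to 1985 over 9 CD8 T and NK cell markers, and 52.1 to 102.9 over 6 gamma-delta T cell markers. They were 28.2 to 56.2 over 5 B cell markers (Ms4a1 at 0), 85.7 to 140.3 over 7 myeloid, 13.6 to 69.8 over 4 mast cell and basophil, 0 to 2.31 over 3 erythroid and 203.5 to 352.1 over 5 stromal and epithelial markers.

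The upstream sequences of the members whose levels separated the donors most are given first. Il17a, Il17f and Ccl20 lie on chromosome 1, and Il17a and Il17f are neighbours transcribed from opposite strands. RefSeq windows (GRCm38.p6, the assembly behind mm10) were matched for 9 of the 10 members, and the 250 bases before the annotated start are printed in the direction of transcription. Capitals mark letters that match 1 of the motifs searched on both strands: TATAAA, the AP-1 motif TGANTCA, the STAT motif TTCNNNGAA and the NFAT core GGAAA, none of which overlap here.
Il17a (chr1:20730655-20730904, plus strand): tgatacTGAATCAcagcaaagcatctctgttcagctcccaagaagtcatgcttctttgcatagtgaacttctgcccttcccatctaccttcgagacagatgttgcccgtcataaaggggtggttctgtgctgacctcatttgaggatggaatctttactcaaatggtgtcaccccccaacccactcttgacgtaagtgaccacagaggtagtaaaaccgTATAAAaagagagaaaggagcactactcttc
Il17f (chr1:20784271-20784520, minus strand): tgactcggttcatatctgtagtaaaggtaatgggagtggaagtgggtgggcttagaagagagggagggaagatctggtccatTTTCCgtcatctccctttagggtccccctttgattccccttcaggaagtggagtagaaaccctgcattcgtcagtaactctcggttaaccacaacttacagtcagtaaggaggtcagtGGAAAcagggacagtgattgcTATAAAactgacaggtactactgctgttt
Ccl20 (chr1:83116516-83116765, plus strand): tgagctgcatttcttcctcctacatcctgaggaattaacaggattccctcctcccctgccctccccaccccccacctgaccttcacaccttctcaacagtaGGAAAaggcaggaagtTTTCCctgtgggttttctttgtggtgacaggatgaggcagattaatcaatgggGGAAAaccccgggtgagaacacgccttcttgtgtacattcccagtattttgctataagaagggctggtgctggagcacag
The letters TATAAA stand 31 bases before the RefSeq start of Il17a and 29 before that of Il17f, and they are not in the window of Ccl20. They occur in the windows of 4 of the 9 members (with Cxcl3 and Il22) and in 12.4% of all 32851 windows of this length. TGANTCA was matched in Il17a alone among the 9, 244 bases before the start, and in 6.75% of all windows. The NFAT core was matched in 8 of 9 members and in 55.6% of windows, and the STAT motif in 0 of 9 members and in 7.02% of windows.

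Transcripts of cytokines often carry AUUUA repeats in the untranslated region that follows the coding sequence, elements known to govern how fast such messages decay. The pentamer, written ATTTA in the annotation, was present in 9 of the 10 members and absent from Il23r. It was present in 65.1% of 20956 genes with such a region. Its density had a median of 8.12 per kb over the members and of 1.24 per kb over those genes. The densest stretches of 30 bases (GENCODE vM21 transcripts) are shown for the 4 members with the highest density, with the pentamers in capitals.
Csf2: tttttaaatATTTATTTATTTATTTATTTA
Il17a: ATTTAtatgagctATTTAtgaatctATTTA
Il22: tttATTTAttataagtatacattttATTTA
Ccl20: tgtaaagatATTTAatgttctgtttATTTA
Csf2 held 9 pentamers in 317 bases (28.4 per kb), and 5 of them overlap in the stretch shown. Il22 held 11.5 per kb, Il17a 11.0 per kb and Ccl20 8.57 per kb. These counts describe the annotated sequence only, and the decay of the messages was not measured.

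Per length, the members spanned a wide range. Medians over the 6 libraries, in reads per kilobase of exon scaled by library depth (RPKM), were 351.1 for Il17a, 315.5 for Il17f and 233.1 for Il22. They were 48.7 for Il21, 46.8 for Il10 and 46.5 for Il23r, then 15.8 for Csf2, 5.56 for Il1r1, 0.972 for Ccl20 and 0.473 for Cxcl3. The order within the first 3 did not hold in every library: the ranges were 104.7 to 811.8 for Il17a, 134.0 to 813.0 for Il17f and 137.8 to 319.0 for Il22. Those of Il21 (33.8 to 63.3), Il10 (21.9 to 73.2) and Il23r (38.1 to 65.7) also overlapped. Ccl20 and Cxcl3 rested on few reads, 3 to 99 and 10 to 89 per library. Il17a and Il17f, the defining Th17 transcripts, were abundant in all 6 libraries.

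**Figure D1:**
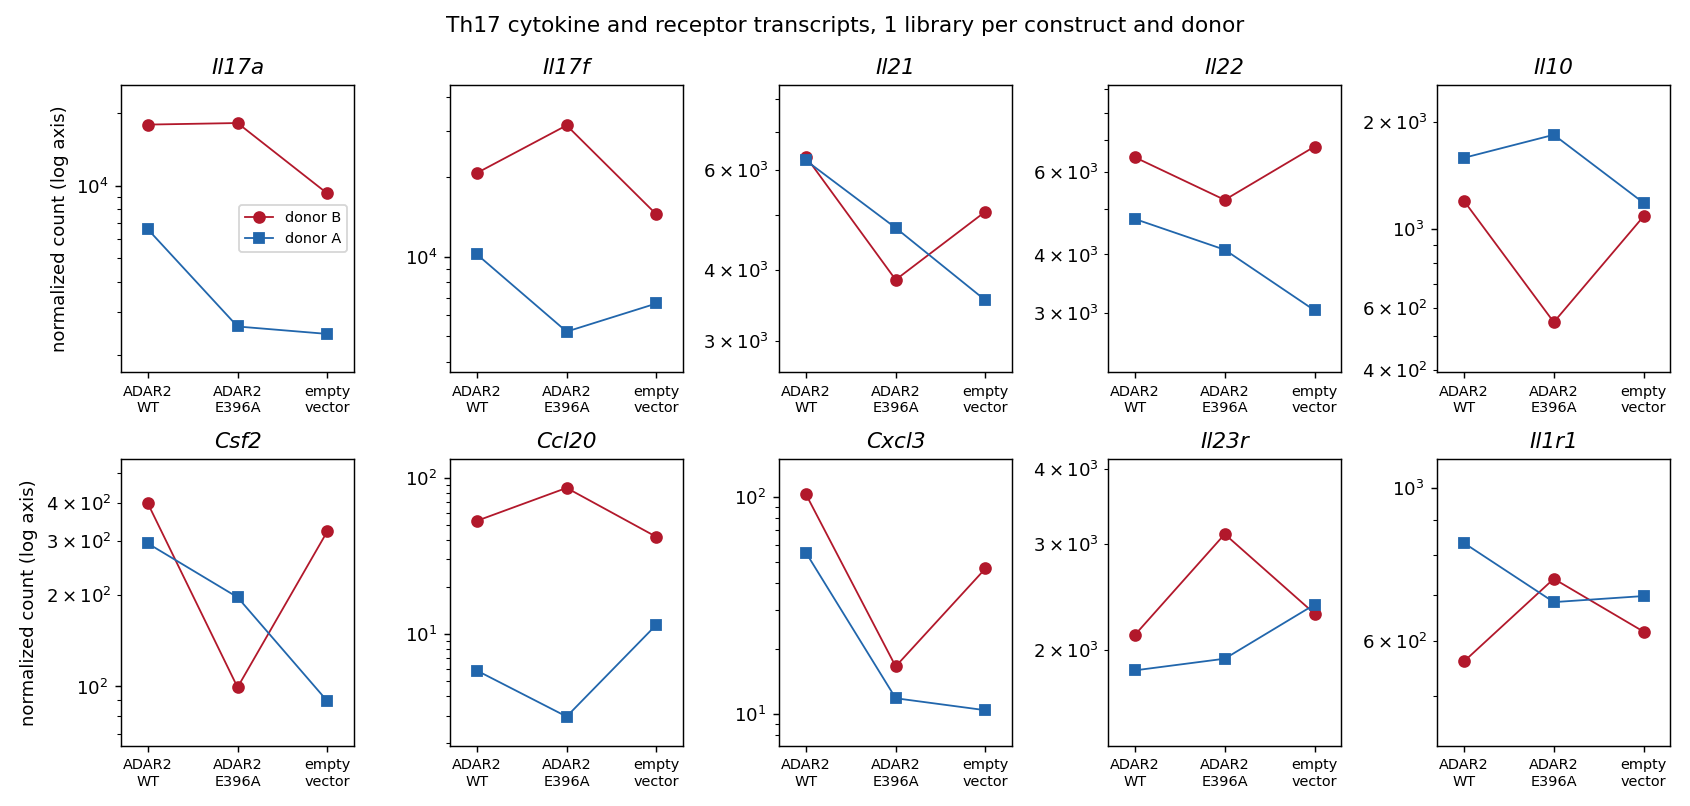
Normalized counts (log axis) of the 10 members in the 6 libraries, with ADAR2 WT, ADAR2 E396A and empty vector from left to right and lines joining the libraries of 1 donor (circles for donor B, squares for donor A). Il17a, Il17f, Il22 and Ccl20 were higher in each donor B library than in any donor A library, while no member separated the 2 ADAR2 WT libraries from all others except Cxcl3 and Il21.

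The first comparison set ADAR2 WT against empty vector, to ask what the active enzyme did to these transcripts. Il17a was 1.93-fold and 2.71-fold higher with ADAR2 WT in donors B and A, and Cxcl3 2.17-fold and 4.94-fold. Neither passed after adjustment over all genes, and 0 of the 10 members did, where 122 of 14958 genes (0.816%) passed limma's test. An unadjusted p under 0.05 was reached by 3 members, Il17a, Il21 and Cxcl3, where 14.1% of all genes reached it. With the plain prior variance that had been fixed for this test, 0 genes passed in any comparison, and the calls given use a prior variance that follows expression level. The donor term removes the difference in level between the 2 mice. Each p-value sets a construct difference against a spread from 2 sources. The first is how much that gene's differences varied between the mice's cultures, pooled over the 3 groups (2 residual degrees of freedom). The second is the typical spread of genes of similar level, which had the larger weight (6.42 prior degrees of freedom). In bulk RNA more producing cells and more RNA per cell cannot be told apart.

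Il17a (ENSMUSG00000025929.4, chromosome 1, 20730905 to 20734496, mm10, plus strand) was at 17878 and 6602 normalized counts with ADAR2 WT in donors B and A, against 9279 and 2437 with empty vector. It was higher with ADAR2 WT within each donor, but the groups overlapped, since the empty-vector library of donor B lay above the ADAR2 WT library of donor A. Its log2 ratio was 1.19 (standard error 0.24, BH-adjusted limma p of 0.0803). Il17f (ENSMUSG00000041872.9, chromosome 1, 20777146 to 20790617, minus strand) was at 20715 and 10201 with ADAR2 WT, against 14443 and 6646 with empty vector. Its 2 donors gave near-equal steps, 0.52 and 0.62, yet the log2 ratio of 0.57 had a standard error of 0.31 (BH-adjusted limma p of 0.449), the spread being estimated over all 6 libraries. It ran from 0.15 without the ADAR2 WT library of donor A to 0.99 without that of donor B. In the authors' deposited table, fitted to the 4 libraries of this comparison, Il17a had a log2 ratio of 1.19 (SE 0.24, adjusted p = 0.000261) and Il17f of 0.57 (SE 0.09, adjusted p = 5.9e-08), turned here to run from empty vector to construct. Ccl20 was given no adjusted p in the authors' deposited table, and the remaining members did not pass there. Of the 11207 genes given one, 196 (1.75%) passed, 0.866% being higher with the construct. With no filter on low values Il17a passed limma's test (BH-adjusted limma p of 0.0167), where 220 genes did. DESeq2 fitted to all 6 libraries gave Il17a an adjusted p of 0.237 and Il17f one of 0.999.

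The balance of the pair varied. The ratio of Il17f to Il17a per length was 0.671 and 0.895 with ADAR2 WT in donors B and A, 1.00 and 1.15 with ADAR2 E396A, and 0.901 and 1.58 with empty vector. Within each donor the ratio was lowest with ADAR2 WT. No test was made of this ratio.

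Among the other cytokines, Il21 (ENSMUSG00000027718.8, chromosome 3, 37222759 to 37232636, minus strand), the STAT3-activating cytokine, was at 6338 and 6240 normalized counts with ADAR2 WT, against 5070 and 3534 with empty vector. The ADAR2 WT libraries lay above both others, as they did for 37.2% of all genes in 1 direction or the other, and the log2 ratio was 0.57 (standard error 0.16, BH-adjusted limma p of 0.157). Csf2 (ENSMUSG00000018916.5, chromosome 11, 54247271 to 54249667, minus strand) was at 398.0 and 294.2 with ADAR2 WT, against 322.3 and 89.6 with empty vector. The step was 0.30 in donor B and 1.70 in donor A, and the empty-vector library of donor B lay above the ADAR2 WT library of donor A. Il22 (ENSMUSG00000074695.3, chromosome 10, 118204942 to 118210047, plus strand), which acts on epithelial barriers, was at 6439 and 4759 with ADAR2 WT, against 6785 and 3042 with empty vector, and its direction differed between donors. Iltifb, a near-identical copy of Il22 on the same chromosome, had 1.88% to 2.40% of the reads of Il22, and reads could be split between the copies. Il10 (ENSMUSG00000016529.5, chromosome 1, 131019845 to 131024974, plus strand) was at 1199 and 1585 with ADAR2 WT, against 1085 and 1184 with empty vector, a log2 ratio of 0.28 (standard error 0.31, BH-adjusted limma p of 0.728), with groups that did not overlap.

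Of the chemokines, Cxcl3 (ENSMUSG00000029379.10, chromosome 5, 90786103 to 90789600, plus strand) was at 102.7 and 55.3 normalized counts with ADAR2 WT, against 46.8 and 10.4 with empty vector. Both ADAR2 WT libraries lay above both empty-vector libraries, and the log2 ratio of 1.71 (standard error 0.40, BH-adjusted limma p of 0.113) was the largest among the members. Ccl20 (ENSMUSG00000026166.14, chromosome 1, 83116766 to 83119167, plus strand) was at 53.1 and 5.83 with ADAR2 WT, against 41.9 and 11.5 with empty vector, with opposite directions in the donors. The receptors differed by less. Il23r (ENSMUSG00000049093.9, chromosome 6, 67422932 to 67491855, minus strand) was at 2122 and 1852 with ADAR2 WT, against 2301 and 2382 with empty vector, a log2 ratio of -0.24 (standard error 0.14, BH-adjusted limma p of 0.498). Il1r1 (ENSMUSG00000026072.12, chromosome 1, 40225080 to 40317257, plus strand) was at 560.7 and 833.0 with ADAR2 WT, against 619.4 and 697.7 with empty vector.

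In all, 6 members were higher with ADAR2 WT in both donors (Il17a, Il17f, Il21, Il10, Csf2 and Cxcl3), 1 was lower in both (Il23r) and 3 went opposite ways. Of all genes, 31.2% were higher in both donors, 31.5% lower in both and 37.3% opposite. The median log2 difference over the members was 0.31 in donor B and 0.63 in donor A, where that of all genes in the fit was 0.00 (-0.00249). Summed CD8 T and NK cell markers moved with the same comparison: 707.2 and 580 normalized counts with ADAR2 WT in donors B and A, against 1620 and 1985 with empty vector, with Ncr1 at 0 in all libraries. Of 7 such markers tested 3 fell, Klrc1 (-1.88), Klrd1 (-2.39) and Klrk1 (-1.38), and 0 rose. Only Cd8b1 of the 7 had a value above 0 (0.21, BH-adjusted limma p of 0.59), and Cd8a had -0.46 (0.749). Klrc1 alone was at 320.7 and 238.8 normalized counts with ADAR2 WT in donors B and A, against 993.3 and 1052 with empty vector. The part of these markers in the members' values was not tested.

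The catalytically dead construct was compared with empty vector in the same way, to see which differences need the enzyme's activity. Here the donors disagreed: 9 of the 10 members went opposite ways in donors B and A, as did 54.7% of all genes. Only Il17a was higher in both, by 0.97 and 0.10 on the log2 scale. None of the 10 members passed limma's test (adjusted p = 0.999 for each), where 2 of 14958 genes (0.0134%) did, and 0 members passed in the authors' deposited table, where 2 of 28872 genes (0.00693%) did. At an unadjusted p under 0.05 limma's test counted 582 genes (3.89%) and 0 members, and edgeR and DESeq2 called 3 genes (0.0201%) and 7 genes (0.0468%).

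For Il17f, Ccl20, Il17a and Il23r the highest of the 6 libraries was that of donor B with ADAR2 E396A. Il17f was at 31376 and 5202 normalized counts with ADAR2 E396A in donors B and A, against 14443 and 6646 with empty vector, so its highest and its lowest level over the 6 libraries were both in the ADAR2 E396A group. Ccl20 showed the same order, at 86.3 and 2.96 with ADAR2 E396A, against 41.9 and 11.5 with empty vector. Il17a was at 18145 and 2616 with ADAR2 E396A, against 9279 and 2437 with empty vector, and its ADAR2 WT library of donor B was nearly as high (17878). Il23r was at 3119 and 1937 with ADAR2 E396A, against 2301 and 2382 with empty vector.

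For 4 cytokines (Csf2, Il10, Il21 and Il22) and Cxcl3 the difference was below 0 in donor B and above 0 in donor A. Csf2 was at 99.4 and 196.0 normalized counts with ADAR2 E396A in donors B and A, against 322.3 and 89.6 with empty vector. Il10 was at 546.5 and 1840 with ADAR2 E396A, against 1085 and 1184 with empty vector, which made these libraries its lowest and highest. Il21 was at 3841 and 4744 with ADAR2 E396A, against 5070 and 3534 with empty vector. Cxcl3 was at 16.6 and 11.8 with ADAR2 E396A, against 46.8 and 10.4 with empty vector. Il22 differed by -0.38 and 0.43, Il23r by 0.44 and -0.30 and Il1r1 by 0.26 and -0.03 on the log2 scale in donors B and A. With 1 library per donor and construct these opposite directions could not be tested.

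**Figure D2:**
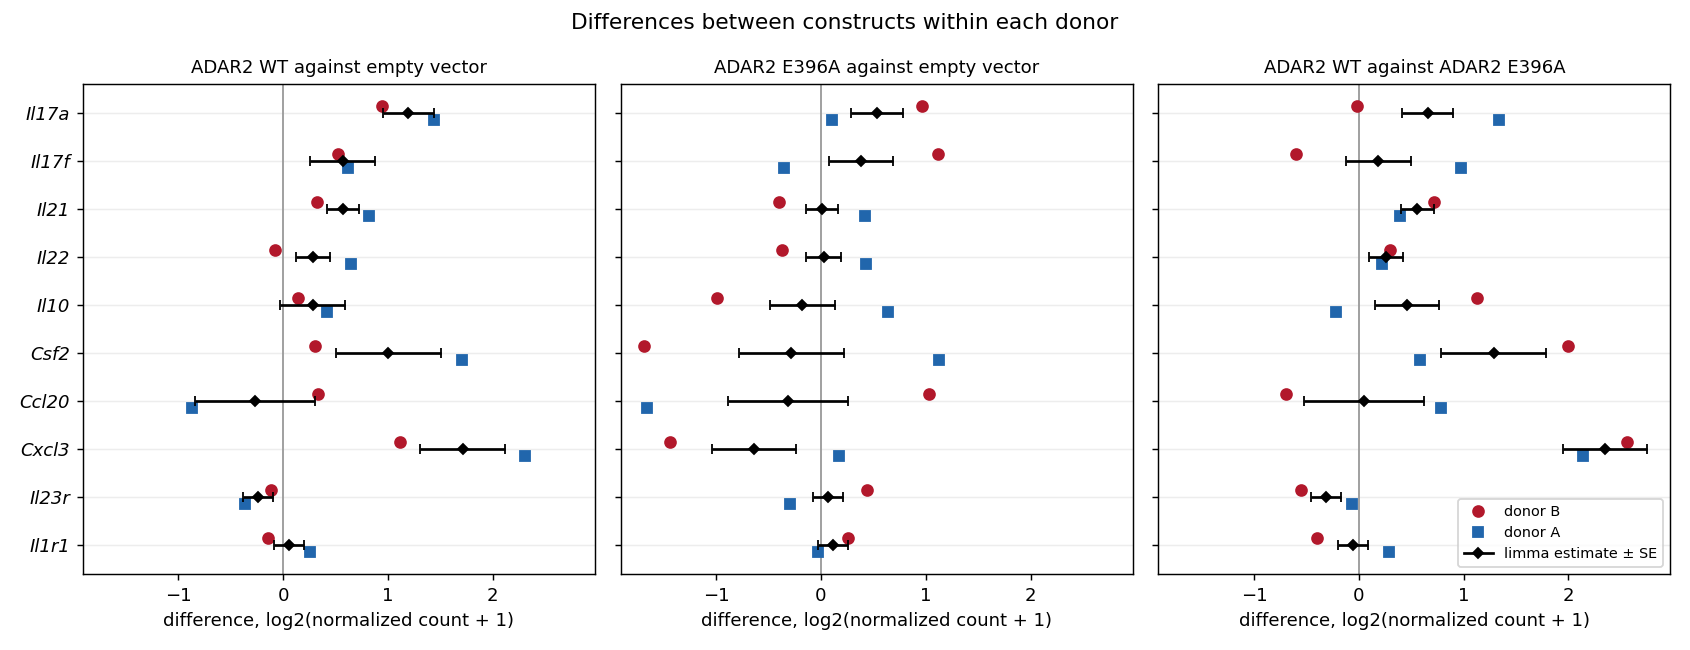
Differences in log2(normalized count + 1) between constructs within each donor (circles for donor B, squares for donor A), with limma's estimate and its SE as diamonds with bars, for the 3 comparisons from left to right. With ADAR2 E396A against empty vector 9 of 10 members have their donors on opposite sides of 0, and with ADAR2 WT against empty vector 3 of 10 do.

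Set directly against ADAR2 E396A, ADAR2 WT again passed for 0 of 10 members, where 10 of 14958 genes (0.0669%) passed limma's test. An unadjusted p under 0.05 was reached by 4 members, Il17a, Il21, Csf2 and Cxcl3, and by 12.4% of all genes. Cxcl3 stood apart most clearly, at 102.7 and 55.3 normalized counts with ADAR2 WT in donors B and A, against 16.6 and 11.8 with ADAR2 E396A. Its groups did not overlap, as for 36.7% of all genes, and it was 5.90-fold and 4.39-fold higher within the donors. The log2 ratio was 2.35 (standard error 0.40, BH-adjusted limma p of 0.0933). DESeq2 on the recovered reads, which called 111 genes (0.742%), gave Cxcl3 an adjusted p of 0.00681, limma with no filter on low values one of 0.028, and edgeR one of 0.0705. Csf2, at 398.0 and 294.2 with ADAR2 WT against 99.4 and 196.0 with ADAR2 E396A, had a log2 ratio of 1.29 (standard error 0.50, BH-adjusted limma p of 0.352) and non-overlapping groups, and the value was 0.23 with donor B's ADAR2 E396A library left out and 2.34 with donor A's left out. Il21 had 0.56 (standard error 0.16, BH-adjusted limma p of 0.218), higher with ADAR2 WT in both donors and without overlap. Il17a did not differ in 1 direction: it was at 17878 with ADAR2 WT against 18145 with ADAR2 E396A in donor B, and at 6602 against 2616 in donor A. Over the members 4 were higher with ADAR2 WT in both donors (Il21, Il22, Csf2 and Cxcl3), 1 lower in both (Il23r) and 5 opposite. Of all genes, 32.9% were higher in both donors, 29.6% lower in both and 37.5% opposite.

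In limma's test over the 6 libraries, members passed between the donors and in none of the construct comparisons. Across the 3 groups Il17a, Il17f, Il22 and Ccl20 were higher in donor B, and 4 of the 10 members passed limma's test of donor B against donor A, all in that direction, where 1124 of 14958 genes (7.51%) passed, 555 higher (3.71%) and 569 lower. Scaled by total reads, 1173 passed, 707 higher and 466 lower. Under the plain prior none of the 4 passed (BH-adjusted limma p of 0.142 for Il17a, 0.204 for Il17f, 0.166 for Ccl20 and 0.256 for Il22). With edgeR (1197 genes, 8.0%) and DESeq2 (821 genes, 5.49%), which do not use that prior, Il17a, Il17f and Ccl20 passed in both, while Il22 passed in edgeR and had a DESeq2 adjusted p of 0.116. The donor is 1 mouse and 1 set of cultures on each side, so mouse, culture and handling cannot be told apart. The 3 libraries of a donor are not replicates of the mouse. These p-values set the donor difference against its variation over the 3 groups, combined with the spread of genes of similar level as above. No variation between further mice enters them.

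Il17a had the smallest adjusted p among the members. Its 3 donor B libraries were at 17878, 18145 and 9279 normalized counts (ADAR2 WT, ADAR2 E396A, empty vector), against 6602, 2616 and 2437 in donor A. The lowest donor B library lay above the highest donor A library, and the log2 difference was 2.05 (standard error 0.20, BH-adjusted limma p of 0.00146). By group it was 2.71-fold with ADAR2 WT, 6.94-fold with ADAR2 E396A and 3.81-fold with empty vector. Il17f was at 20715, 31376 and 14443 in donor B, against 10201, 5202 and 6646 in donor A, a log2 difference of 1.58 (standard error 0.25, BH-adjusted limma p of 0.00954) without overlap.

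Ccl20 differed by the largest factor, at 53.1, 86.3 and 41.9 normalized counts in donor B against 5.83, 2.96 and 11.5 in donor A, a log2 difference of 3.08 (standard error 0.47, BH-adjusted limma p of 0.00783). Il22 was at 6439, 5226 and 6785 in donor B against 4759, 4093 and 3042 in donor A, a log2 difference of 0.65 (standard error 0.13, BH-adjusted limma p of 0.0234). Groups of 3 without overlap were found for these 4 members and for 22.8% of all genes, 11.0% being higher in donor B. Without the ADAR2 WT library of donor A, Il17f, Ccl20 and Il22 lost their call (BH-adjusted limma p of 0.0797, 0.116 and 0.159), and without that of donor B likewise (0.08, 0.13 and 0.159), while Il17a kept it. Without either empty-vector library the difference of Il22 was 0.39.

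Il10 ran the other way in all 3 groups, at 1199, 546.5 and 1085 in donor B against 1585, 1840 and 1184 in donor A. Its log2 difference was -0.76 (standard error 0.25, BH-adjusted limma p of 0.118). Cxcl3 was higher in donor B in each group, by 1.86-fold, 1.40-fold and 4.49-fold, with a log2 difference of 1.13 (standard error 0.33, BH-adjusted limma p of 0.0786). Il23r (0.28, standard error 0.12, BH-adjusted limma p of 0.214), Csf2 (0.43, standard error 0.41, BH-adjusted limma p of 0.592), Il21 (0.08, standard error 0.13, BH-adjusted limma p of 0.764) and Il1r1 (-0.21, standard error 0.12, BH-adjusted limma p of 0.347) each had at least 1 group against the others. Summed gamma-delta T cell markers, another source of IL-17, were at 76.2, 102.9 and 63.3 in donor B against 68.9, 55.2 and 52.1 in donor A, with Blk at 0 throughout and 0 of 4 tested markers passing. Their part in the donor difference was not tested.

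**Figure D3:**
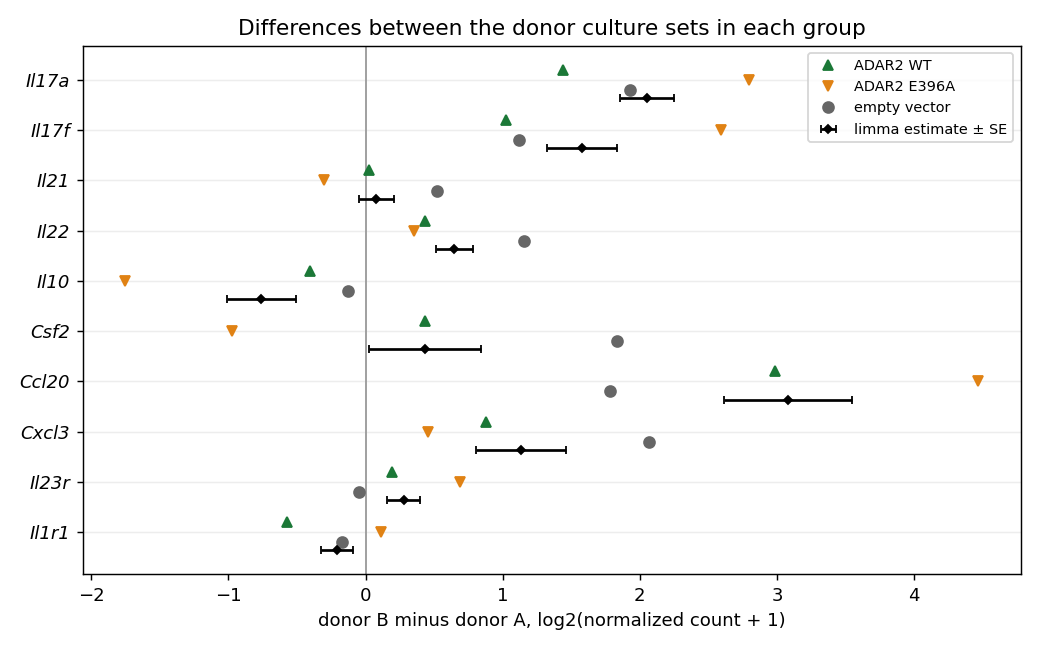
Donor B minus donor A in log2(normalized count + 1) for each member, by group (triangles up for ADAR2 WT, triangles down for ADAR2 E396A, circles for empty vector), with limma's estimate and its SE as black diamonds with bars. Il17a, Il17f, Il22, Ccl20 and Cxcl3 lie to the right of 0 in all 3 groups and Il10 to the left, and the ADAR2 E396A symbols are the farthest from 0 for Il17a, Il17f, Il10, Ccl20 and Il23r.

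Genes around the members were read from lists chosen with earlier results of these data known, and the values given are limma's log2 differences. Of all 14958 genes, 0.816% passed between ADAR2 WT and empty vector and 0.0669% between ADAR2 WT and ADAR2 E396A. Between the donors 7.51% passed, 3.71% being higher in donor B. Among the receptor pathway of IL-17 itself (9 genes, all tested) 0 passed with ADAR2 WT, and Il17ra, the shared receptor chain, had -0.45 (BH-adjusted limma p of 0.127) and Il17re -0.49 (0.413). With donor B, Nfkbiz, an IκB protein needed for IL-17 responses, rose by 0.46 (BH-adjusted limma p of 0.03) as the 1 of 9 that passed. Another list held 21 genes of the IL-23, IL-1, IL-6 and IL-21 receptors and of related receptors (IL-10, IL-12, IL-18 and GM-CSF), with Janus kinases and adaptors. Of these 1 passed with ADAR2 WT: Jak2, a kinase of the IL-23 receptor, rose by 0.46 (BH-adjusted limma p of 0.0352). It was at 14629 and 17087 normalized counts with ADAR2 WT, against 11451 and 11566 with empty vector. With donor B 1 rose and 3 fell, namely Il18rap of the IL-18 receptor (1.37), and Il1r2, the decoy receptor of IL-1 (-0.66), Il12rb2 of the IL-12 receptor (-0.39) and Irak1 (-0.24).

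Of 18 other T cell cytokines tested, 2 rose and 1 fell with ADAR2 WT. Il9 was at 889.5 and 422.3 normalized counts with ADAR2 WT, against 352.5 and 66.7 with empty vector, and rose by 1.99 (BH-adjusted limma p of 0.024). Tnfsf8, the CD30 ligand, rose by 0.66 (BH-adjusted limma p of 0.0362) and Tgfb3 fell by 1.41 (BH-adjusted limma p of 0.0436). The median of that list was 0.36, beside -0.00249 over all genes. Il9 was also the 1 gene of the list to pass between ADAR2 WT and ADAR2 E396A, at 2.13 (BH-adjusted limma p of 0.0481), with 222.3 and 86.7 normalized counts in donors B and A with ADAR2 E396A. With donor B 6 of 18 passed as higher and 0 as lower, where 3.71% of all genes passed as higher. The list as a whole was not shifted: 9 of the 18 had values above 0, and the median was -0.0159. Among the 6 were Tnfsf11 (1.39), Il9 (1.60), Tnfsf8 (0.59) and Il2 (1.32).

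Of 11 other chemokines and chemokine receptors tested, 1 rose and 1 fell with ADAR2 WT: Ccr4 by 0.43 (BH-adjusted limma p of 0.0426) and Ccl9 by -1.83 (BH-adjusted limma p of 0.0259). With donor B 4 rose and 2 fell, where 3.71% of all genes rose and 7.51% passed in all. Ccr6, the receptor of CCL20, rose by 1.15 (BH-adjusted limma p of 0.00668), Cxcr3 by 1.11 and Ccl22 by 1.58, and Ccl9 had -1.17. Of 16 transcription regulators 1 rose with ADAR2 WT, Basp1 by 0.69 (BH-adjusted limma p of 0.0362). With donor B 1 rose, Nr4a1 (0.38), and 3 fell: Ahr, the aryl hydrocarbon receptor that promotes Il22 (-0.98, BH-adjusted limma p of 0.000347), Ikzf3 (-1.54) and Maf, an activator of Il10 (-0.39, BH-adjusted limma p of 0.00646). Of 13 genes of the pathogenic Th17 signature 0 passed with ADAR2 WT, with values of -0.86 for Gzmb (BH-adjusted limma p of 0.184) and -0.58 for Ccl4 (0.145). With donor B 2 rose, Casp1 (0.89) and Stat4 (0.43), and 2 fell, Lag3 (-0.90) and Gzmb (-1.34). Of 6 genes of the nonpathogenic signature 1 rose with ADAR2 WT, Il9, and with donor B 1 rose (Il9) and 3 fell (Ahr, Ikzf3 and Maf).

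With ADAR2 E396A against empty vector 0 genes of any of these lists passed limma's test. The values farthest from 0 were 1.16 for Cxcl10, -0.99 for Il17d, 0.90 for Csf2rb and -0.83 for Il5, at a limma adjusted p of 0.999 each. These genes had few normalized counts per library: 1.04 to 20.8 for Cxcl10, 4.36 to 18.8 for Il17d, 1.04 to 16.6 for Csf2rb and 0.87 to 80.8 for Il5.

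Profiles most like each member's over the 6 libraries were sought among 10096 genes, as the root mean square difference of centred log2 values. Such likeness is a description over 6 libraries that share donors and constructs. For Il17f the nearest were Abi3bp (0.10) and Igfbp7 (0.11), genes of extracellular proteins, then Gap43 (0.16). For Il17a they were Abi3bp (0.35), Lum, which encodes lumican (0.35), and Il17f itself (0.38). Abi3bp was at 100.4 and 51.5 normalized counts with ADAR2 WT in donors B and A, at 127.3 and 22.7 with ADAR2 E396A and at 66.2 and 29.2 with empty vector. For Il22 the nearest were Plek (0.10), its copy Iltifb (0.12) and Anxa1 (0.13). For Il10 they were Epas1, a hypoxia-inducible factor (0.12), Sgce (0.14) and Spsb1 (0.15), and Epas1 was lowest, like Il10, in donor B with ADAR2 E396A, at 301.6 normalized counts.

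For Csf2 the nearest were P2ry1 (0.21), Ido1 (0.29) and Akr1c18 (0.34). This likeness was looser than for Il17f, Il22 or Il10, as was that of Il17a, whose nearest gene was at 0.35. For Il21 they were Trpm6, Zfp772 and Erlin1 (0.07 each), for Il23r Cemip2, Usp49 and Acsl3 (0.06 each), and for Il1r1 Mrgpre (0.04), Ndufaf3 (0.05) and Ift122 (0.06). These 3 members varied little, by 0.32, 0.25 and 0.18 around their own mean, so near profiles are common there. Among the members Il23r and Il1r1 (0.31), Il21 and Il22 (0.32) and Il17a and Il17f (0.38) were the closest pairs.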

How the data were processed

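Illumina NovaSeq libraries were made from ribosome-depleted RNA, per the labels' protocols. The submitters' processing notes name STAR 2.6.1a, featureCounts, DESeq2 1.18.1 and mm10. How strand was set in counting was not stated in any source used here. Each of 2 tables covers 55450 genes and, per the file headers, holds the authors' normalized counts (a signal) of 4 libraries and DESeq2's log2 fold change, Wald statistic (a score) and p-values. The sign of the deposited log2 values is positive where empty vector is higher, and it is turned here.

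Every value of a deposited signal column was a whole multiple of the smallest one. This gave whole reads, within 0.001 of a read, for 100% of values, and on those reads the count test edgeR called 136, 3, 10 and 1197 genes (ADAR2 WT and ADAR2 E396A against empty vector, ADAR2 WT against ADAR2 E396A, donor B against A). Reads were rescaled jointly with median-of-ratios factors and filtered with edgeR's filterByExpr. Then limma 3.58.1 in R 4.3.3 was run on log2(normalized count + 1), a scale that understates changes of low genes. Terms were group and donor, and p-values were adjusted by Benjamini-Hochberg (BH) over 14958 genes, with a threshold of 0.05.

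The test as fixed used limma's plain prior variance. In a simulation of the ADAR2 WT comparison with empty vector it recovered 0% of 300 genes (mean of at least 50) changed 2-fold, and a prior following expression recovered 92.3% (and 66.3% of 300 changed 1.5-fold), over 3 runs of 14958 genes. Of its 541 calls 65 (12.0%) were false, more than the 5% the threshold aims at. The prior following expression, listed as an alternative when the design was fixed, was therefore used. This was decided after the plain prior had been seen to call 0 genes in these data, and with earlier results of them known.

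Libraries sharing a donor were found by refitting DESeq2 1.42.0 under each pairing. The pairing used returned the deposited Wald statistics to within 1.98e-06 (ADAR2 WT) and 5.72e-05 (ADAR2 E396A), and crossed sets differed by up to 13.8 and 6.08. Deviations of same-donor libraries from their group means correlated at 0.584, 0.425 and 0.63 over 10747 genes.

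The members and lists were chosen with earlier results of these data known. Named besides the members and Adarb1 were up to 4 passing genes per list and comparison (otherwise at most 2 with the largest change), and for members with a mean of at least 50 the 3 nearest profiles. Iltifb and single cell type markers (Blk, Ncr1, Ms4a1, Klrc1, Klrd1, Klrk1, Cd8a and Cd8b1) were named after their values had been examined. Results were recomputed with edgeR 4.0.16 and DESeq2, with other scalings, filters, pseudocounts and priors, with 4 libraries only, and with each library left out.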

Additional observations from a re-analysis of the deposited data

Results flagged for a closer look

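Members that went opposite ways in the 2 donors under the same comparison are listed, as log2 differences in donors B and A. The difference between the donors was not tested, since 1 library per donor and construct leaves no replicate. With ADAR2 WT against empty vector these were Il22 (-0.075 and 0.65), Ccl20 (0.34 and -0.87) and Il1r1 (-0.14 and 0.26).

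With ADAR2 E396A against empty vector they were Il17f (1.12 and -0.35), Il21 (-0.40 and 0.42), Il22 (-0.38 and 0.43), Il10 (-0.99 and 0.64), Csf2 (-1.69 and 1.12), Ccl20 (1.03 and -1.66), Cxcl3 (-1.44 and 0.17), Il23r (0.44 and -0.30) and Il1r1 (0.26 and -0.029). Donor B cells with ADAR2 E396A held the highest level of the 6 libraries for Il17f, Ccl20 and Il23r and the lowest for Il10.

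With ADAR2 WT against ADAR2 E396A they were Il17a (-0.021 and 1.34), Il17f (-0.60 and 0.97), Il10 (1.13 and -0.21), Ccl20 (-0.69 and 0.79) and Il1r1 (-0.40 and 0.28).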

How the results depend on the processing

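Counts of passing genes are given in the order ADAR2 WT against empty vector, ADAR2 E396A against empty vector, ADAR2 WT against ADAR2 E396A, and donor B against donor A; limma called 122, 2, 10 and 1124. With no replicate block limma called 2, 1 and 0, and the donor test with the group left out called 465. DESeq2 called 210, 7, 111 and 821. No filter on low values gave 220, 5, 102 and 1146, and a mean of at least 100 gave 36, 2, 3 and 882. The plain prior variance, the choice fixed at first, gave 0, 0, 0 and 0, with 1556, 757, 1359 and 2612 genes at an unadjusted p under 0.05. The 4 libraries of a comparison alone gave 1221, 1 and 317, the first from a fit whose prior degrees of freedom were infinite, so its p-values were not used. Leaving out 1 library gave 1 to 1232, 1 to 204, 0 to 1110 and 61 to 1742, and the fits without an ADAR2 E396A library also had infinite prior degrees of freedom. The cause of these shifts was not tested further. TMM factors, scaling by total reads, pseudocounts of 0.5 and 8 and edgeR stayed within 1.5 times.

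Of the members, Ccl20 turned direction under edgeR with the replicate block (0.47 with ADAR2 E396A against empty vector, -0.475 with ADAR2 WT against ADAR2 E396A), under DESeq2 (-0.28 in the second) and with a pseudocount of 8 (0.045 and -0.14). In the donor test Il22 also lost its call with the group left out (adjusted p = 0.06, limma). Leaving out 1 library turned these directions, given as lowest to highest log2 values: ADAR2 WT against empty vector, Ccl20 -1.24 to 0.70, Il10 -0.19 to 0.76, Il23r -0.48 to 0.006, Il22 -0.096 to 0.67, Csf2 -0.049 to 2.06, Il1r1 -0.21 to 0.33; ADAR2 E396A against empty vector, Ccl20 -1.35 to 0.72, Il21 -0.32 to 0.34, Il22 -0.36 to 0.41, Il10 -0.92 to 0.57, Cxcl3 -1.34 to 0.061, Il23r -0.24 to 0.38, Csf2 -1.34 to 0.77, Il17a -0.021 to 1.09, Il17f -0.38 to 1.14, Il1r1 -0.13 to 0.35; ADAR2 WT against ADAR2 E396A, Il17f -0.57 to 0.95, Ccl20 -0.99 to 1.09, Il1r1 -0.33 to 0.21, Il10 -0.28 to 1.20; donor B against donor A, Il21 -0.14 to 0.27, Csf2 -0.27 to 1.14. The others kept their direction: ADAR2 WT against empty vector, Il17a 0.73 to 1.65, Il17f 0.15 to 0.99, Il21 0.24 to 0.90, Cxcl3 1.01 to 2.41; ADAR2 WT against ADAR2 E396A, Il17a 0.10 to 1.21, Il21 0.27 to 0.85, Cxcl3 1.84 to 2.86, Il23r -0.62 to -0.003, Il22 0.037 to 0.48, Csf2 0.23 to 2.34; donor B against donor A, Il17a 1.68 to 2.36, Il17f 1.07 to 1.86, Il1r1 -0.37 to -0.03, Ccl20 2.38 to 3.73, Il10 -1.08 to -0.27, Cxcl3 0.67 to 1.47, Il23r 0.073 to 0.44, Il22 0.39 to 0.80. With no filter Il17a passed with ADAR2 WT against empty vector (adjusted p = 0.0167, limma). Fits with fewer libraries, 1 residual degree of freedom and a finite prior gained calls. With donor B's empty-vector library left out, ADAR2 WT against empty vector called Il21 (0.00393), Cxcl3 (0.0216), Il22 (0.00339) and Csf2 (0.0211, each an adjusted limma p). ADAR2 WT against ADAR2 E396A called Il21, Cxcl3 and Il22 on its own 4 libraries (0.0125, 0.0101 and 0.0474), and the first 2 of these when donor A's empty-vector library (0.0132 and 0.00944) or donor B's (0.0137 and 0.0147) was left out, with Il22 at 0.0477 without the one of donor A. Donor B against donor A called Il10 and Il23r when donor A's (0.0338 and 0.0372) or donor B's (0.034 and 0.038) was left out. Depth limits Ccl20 and Cxcl3, with 3 to 99 and 10 to 89 reads per library.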
